A study of Mus musculus with 8 samples.

Results

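The chemokine ligand genes of the mouse were followed in a medullary thymic epithelial cell (mTEC) line before and after thymocyte adhesion. They were every gene whose symbol is *Ccl* plus a number with or without a letter, *Cxcl* plus a number, *Cx3cl1* or *Xcl1*, and 39 of the 24052 gene symbols counted met that rule. RNA was sequenced from the mTEC 3.10 line (strain C57BL/6, passage 2), either wild type (WT) or the *Aire*-mutant clone E6, without or with co-culture for 12 h with 50 thymocytes per mTEC, in 2 libraries for each of the 4 groups. The co-cultured thymocytes came from C57BL/6 mice and were washed off with buffer before the mTECs were trypsinized, and no sort is stated. The question asked of these libraries was how contact with thymocytes alters mRNA levels in mTECs and whether the *Aire* genotype matters.

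The E6 libraries come from 1 CRISPR-Cas9 clone, so the *Aire* mutation and any other property of that clone cannot be told apart. Their genotype label is *Aire* +/-, while the study's methods describe a clone with both alleles mutated, and this difference was not resolved here. By the labels, cells grew for 12 h in 5 libraries and for 24 h in the other 3, which were WT after adhesion (replicate 2), E6 before (replicate 1) and E6 after (replicate 1). The 2 libraries of these 3 groups thus differ in culture time, while nothing says whether those of WT before adhesion came from separate cultures. The p-values measure the spread between libraries, which includes culture time and may in part be technical. *Aire* mRNA itself cannot check the labels, since it was counted 3 times in 1 WT library after adhesion (replicate 2), 3 times in 1 E6 library after adhesion (replicate 2) and 0 times in the other 6. The 9 epithelial markers examined summed to 4053 to 5953 CPM (counts scaled to the library's total gene counts) over the 8 libraries, and the 6 mTEC markers, *Aire* among them, were at or near 0 (0.0690 to 1.60 CPM in sum).

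Chemokines are small secreted proteins that direct the movement of leukocytes through G protein-coupled receptors, and they are grouped as CC, CXC, CX3C and XC by the spacing of their leading cysteines. In the thymus, CCL25 acts through CCR9 to attract progenitors and developing thymocytes, CCL19 and CCL21 act through CCR7 to bring positively selected thymocytes into the medulla, and XCL1 of mTECs takes part in placing dendritic cells there. The inflammatory ligands, among them the neutrophil-attracting CXCL1, CXCL2 and CXCL3 and the monocyte-attracting CCL2, are low in resting epithelium and are classical targets of NF-κB, while CXCL9, CXCL10 and CXCL11 are targets of interferon signalling.

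Promoters are shown for a selection of the ligand genes for which RefSeq sequence was at hand (27 of the 39 members). Each line is the gene's own strand, 5′ to 3′, from the bases before the RefSeq start in build GRCm38.p6, with capitals for letters that match the NF-κB motif GGNNTTTCC or the interferon-response motif GAAANNGAA on either strand. Every promoter shown holds such a match, and the selection did not follow the tests below. *Cxcl1* and *Cxcl10* are shown but passed in no comparison with all libraries fitted. *Ccl22* passed for adhesion in E6 and for E6 against WT after adhesion, but its promoter, which holds neither motif, is not shown. The selection thus cannot tell whether the genes that changed share these letters. The windows of *Cxcl1* and *Cxcl2* stop 4 and 28 bases short of that start, where the annotation places an earlier one. The first 3 are the neighbouring CXC genes on the plus strand of chromosome 5 (chr5:90785981-90786100, chr5:90891125-90891240 and chr5:90903779-90903870), followed by *Cxcl10* on the minus strand of that chromosome (chr5:92348890-92349109), and *Ccl9* and *Ccl3* on the minus strand of chromosome 11 (chr11:83578637-83578756 and chr11:83649379-83649498).
Cxcl3: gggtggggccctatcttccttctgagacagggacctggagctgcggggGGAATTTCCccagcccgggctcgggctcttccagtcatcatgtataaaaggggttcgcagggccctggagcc
Cxcl1: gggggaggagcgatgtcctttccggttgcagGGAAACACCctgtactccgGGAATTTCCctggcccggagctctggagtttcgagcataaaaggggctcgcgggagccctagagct
Cxcl2: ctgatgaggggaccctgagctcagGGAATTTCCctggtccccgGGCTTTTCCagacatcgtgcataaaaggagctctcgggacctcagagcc
Cxcl10: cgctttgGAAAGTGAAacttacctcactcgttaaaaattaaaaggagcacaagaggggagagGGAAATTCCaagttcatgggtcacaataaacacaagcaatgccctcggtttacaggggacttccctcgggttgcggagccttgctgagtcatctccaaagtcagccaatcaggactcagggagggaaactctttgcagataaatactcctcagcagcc
Ccl9: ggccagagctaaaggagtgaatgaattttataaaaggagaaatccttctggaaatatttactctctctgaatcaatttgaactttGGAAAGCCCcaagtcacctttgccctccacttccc
Ccl3: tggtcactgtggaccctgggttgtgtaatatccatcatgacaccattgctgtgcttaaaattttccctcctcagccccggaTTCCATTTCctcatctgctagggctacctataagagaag

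*Cxcl1*, *Cxcl2* and *Cxcl3* each hold the same 9 letters, GGAATTTCC, on the gene strand, with the first base 70, 96 and 72 bases before the start. *Cxcl10* holds them on the opposite strand with the first base 158 bases before the start, and further upstream, with the first base at 213, lies the interferon-response match GAAAGTGAA. *Ccl9* has GGGCTTTCC on the opposite strand, with the first base at 35, and *Ccl3* has GAAATGGAA on the opposite strand, with the first base at 39. The NF-κB letters are held in the 250 bases before the start by 7 of the 27 members with a promoter (*Ccl20*, *Ccl9*, *Cxcl1*, *Cxcl10*, *Cxcl2*, *Cxcl3* and *Cxcl9*), and by 4.93% of 32851 mouse promoters. The interferon-response letters are held by 6 of the 27 (*Ccl1*, *Ccl19*, *Ccl3*, *Cxcl10*, *Cxcl14* and *Cxcl9*) and by 7.13% of all promoters, and TATAAA on the gene strand by 9 of the 27 and 7.59%. These percentages count promoters and not genes. The 27 members have 33 promoters, of which 7, 6 and 9 hold the motifs in this order. A match of letters is a description of the sequence and not a binding site shown in these cells.

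**Figure D1:**
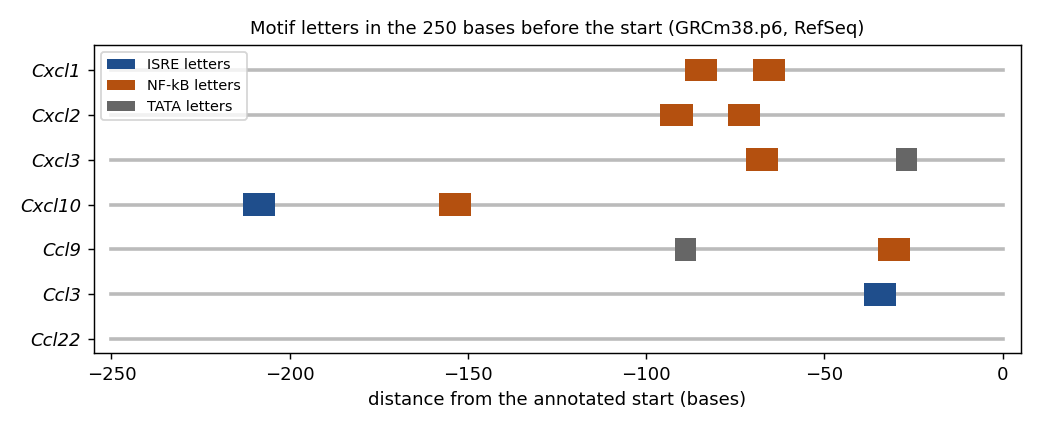
Positions of motif letters in 7 chemokine ligand promoters, drawn to scale in bases before the annotated start (x axis, 250 bases, one line a gene). NF-κB letters (orange) lie within 100 bases of the start in *Cxcl1*, *Cxcl2*, *Cxcl3* and *Ccl9* and farther upstream in *Cxcl10*, interferon-response letters (blue) lie in *Cxcl10* and *Ccl3*, and *Ccl22* holds none of the motifs in this window.

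The libraries held 13506610 to 20145154 counts on genes, and 3 counts, taken as the limit of what a count of 0 allows, correspond to 0.149 to 0.222 CPM per library. Replicate 1 of WT after adhesion stood apart: 66.7% of its alignments fell on genes (75.7 to 78.8% in the others), and its gene levels fell by 0.46 on the log2 scale for each 10 points of GC content relative to the mean of all libraries, against -0.02 to 0.13 in the others. Markers of other cells were also counted after adhesion. The 15 thymocyte markers summed to 0.264 to 0.897 CPM in the 4 libraries before adhesion, to 15.03 and 13.4 CPM in WT after adhesion and to 115 and 93.2 CPM in E6 after adhesion, and 8 of the 15 were at 0 in all libraries before adhesion.

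Of the 12 macrophage markers counted, 6 (*Emr1*, *C1qa*, *C1qb*, *C1qc*, *Lyz2* and *Mrc1*) were at 0 in all 4 libraries before adhesion and present after it. *Lyz2*, lysozyme of myeloid cells, had 12 and 24 counts in WT and 109 and 88 in E6 after adhesion. The whole macrophage list, which includes *Cd68* and *Csf1r* counted in all groups, summed to 58.2 to 80.3 CPM before and 48.6 to 79.6 CPM after adhesion. The 7 dendritic cell markers summed to 2.07 to 2.80 CPM before and 2.13 to 5.21 CPM after adhesion, the 5 endothelial markers to at most 0.0690 and to 0.133 to 2.14 CPM, and the 6 neutrophil markers to at most 0.0608 and 0.858 CPM. The 6 B cell markers summed to at most 0.276 and 0.858 CPM and the 6 fibroblast markers to 1.16 to 3.22 and 1.72 to 4.02 CPM. In bulk RNA, fewer cells of a type and less RNA per cell cannot be told apart, and the part of these cells in the chemokine values was not tested.

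**Figure D2:**
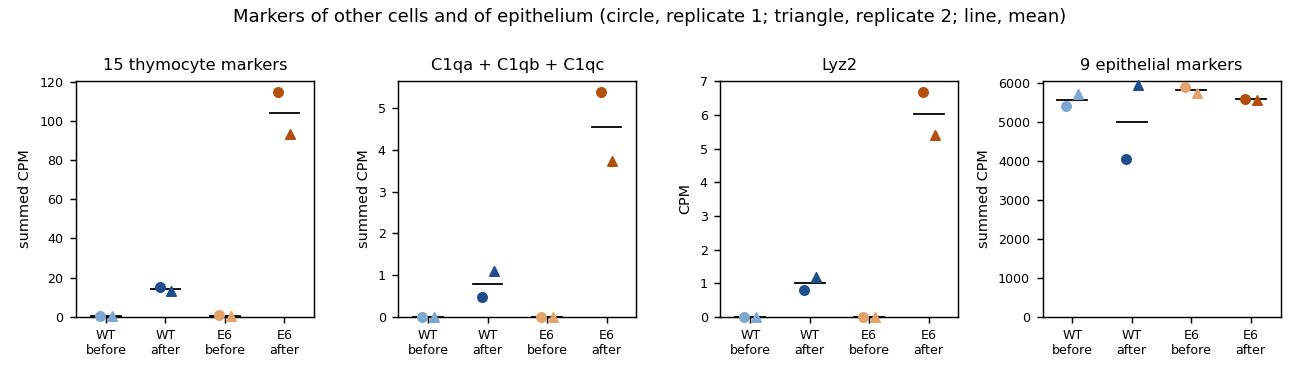
Summed CPM of 15 thymocyte markers, of the 3 C1q genes, of *Lyz2* and of 9 epithelial markers in each library (circle, replicate 1; triangle, replicate 2; line, mean of the group). Thymocyte, C1q and *Lyz2* levels are near or at 0 before adhesion and higher in E6 than in WT after it, while the epithelial sum is similar apart from the low value of replicate 1 of WT after adhesion.

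In GRCm38, 12 of the 39 members lie on chromosome 11 and 11 on chromosome 5, which hold the main CC and CXC clusters. Most chemokine ligand genes were silent or nearly so, and a pair of transmembrane ligands made up nearly all of the rest. No read was counted in any library for 13 of the 39 members: *Ccl8*, *Ccl11*, *Ccl19*, *Ccl21a*, *Ccl21b*, *Ccl21c*, *Ccl26*, *Ccl27b*, *Cxcl11*, *Cxcl13*, *Cxcl14*, *Cxcl15* and *Cxcl17*. Of the 26 others, 9 had 1 to 9 counts in all libraries together, 10 had 10 to 99, 5 had at least 100 and fewer than 1000, and 2, *Cxcl16* and *Cx3cl1*, had at least 1000. The CCR7 ligand genes *Ccl19* and *Ccl21a* of the thymic medulla were thus not detectable at this depth, although the near-identical *Ccl21* and *Ccl27* copies may have lost reads that align to several places.

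*Cxcl16* and *Cx3cl1* encode ligands anchored in the membrane by a mucin-like stalk, which can serve as adhesion molecules and can also be shed. Together they made up 89.6 to 97.6% of the summed CPM of all chemokine ligand genes in a library. Per length, *Cxcl16* stood at a mean of 40.6 RPKM (CPM per kilobase of exon; SD 9.89, n = 8 libraries) and *Cx3cl1* at 10.02 RPKM (SD 3.01), and the ranges of these 2 genes over the libraries did not overlap. Over all groups the next in order were *Ccl3* at 1.17, *Cxcl2* at 0.820, *Ccl6* at 0.603 and *Ccl9* at 0.576 RPKM, and the ranges of their group means overlapped. Their order depends on the groups: before adhesion *Ccl3* was at 0 and *Ccl6* led these 4, at 0.748 RPKM in WT and 0.542 RPKM in E6.

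**Figure D3:**
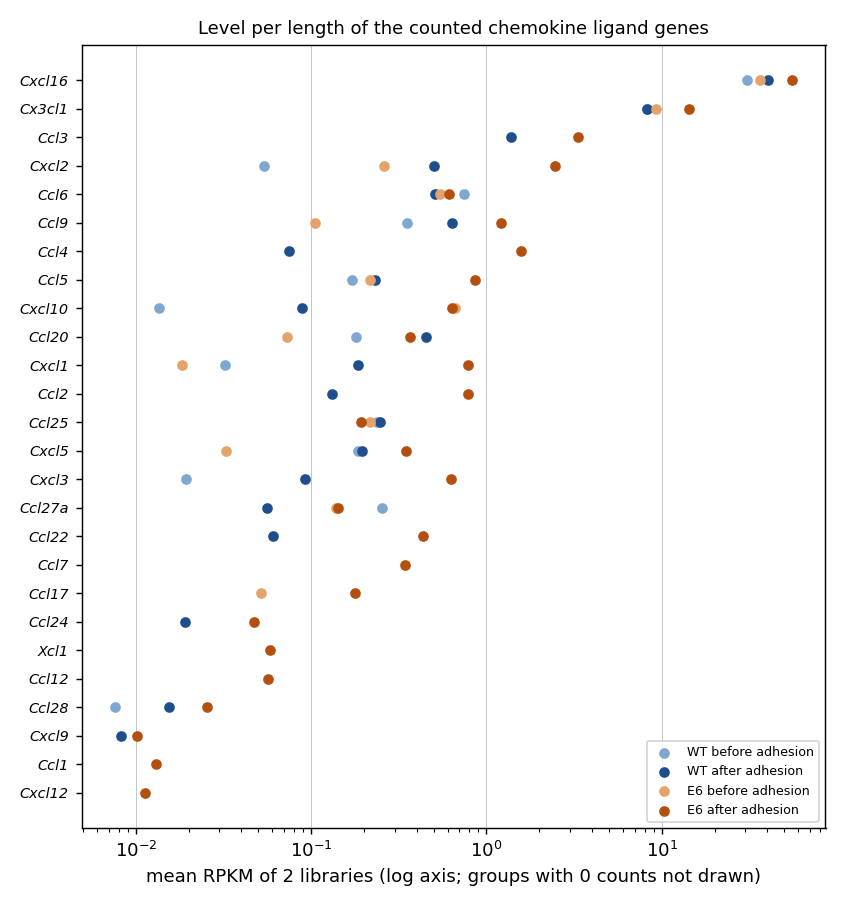
Mean RPKM of the 2 libraries of each group (log x axis) for the 26 chemokine ligand genes with any count, ordered by mean level; a group with 0 counts has no point. *Cxcl16* lies between 30.5 and 55.1 RPKM and *Cx3cl1* between 8.29 and 14.2 RPKM (the points of the WT groups coincide), and all others stay below 4 RPKM.

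*Cxcl16* (chr11:70453983-70459984, minus strand), whose product binds CXCR6 on T cells, was counted at 93.8 and 90.4 CPM in WT before adhesion, 116 and 127 CPM in WT after, 119 and 102 CPM in E6 before and 168 and 165 CPM in E6 after. Within each genotype both libraries after adhesion were above both before, although over the genotypes the values overlapped. The averaged effect of adhesion, that is the mean of the WT and the E6 effect, was 0.49 on the log2 scale (SE 0.08, FDR = 0.030), which is below the required fold change (FC) of 1.5. Before adhesion E6 differed from WT by 0.28 (SE 0.11, FDR = 0.213). Exons of *Cxcl16* overlap those of *Zmynd15* on the opposite strand, and the strand setting of the counting is not given in the sources used here, so reads of the pair cannot be told apart.

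*Cx3cl1* (chr8:94772009-94782427, plus strand), which encodes fractalkine, the ligand of CX3CR1, had 33.0 and 32.1 CPM in WT before adhesion, 22.1 and 43.1 CPM in WT after, 38.1 and 34.8 CPM in E6 before and 55.8 and 56.1 CPM in E6 after. The libraries of E6 after adhesion were the highest of the 8, and those of WT after adhesion, which include the library that stood apart, spanned the values before it. The averaged effect was 0.29 (SE 0.17, FDR = 0.640) and the difference of E6 from WT before adhesion 0.18 (SE 0.24, FDR = 0.751), and neither passed the test.

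*Ccl25*, the ligand of CCR9 made by thymic epithelium, was low and level: 24 and 28 counts in WT before, 28 and 37 in WT after, 27 and 26 in E6 before and 23 and 24 in E6 after adhesion. The groups overlapped, except that E6 after adhesion (1.41 and 1.47 CPM) lay below WT after (1.86 and 1.84 CPM), a difference that did not pass. The averaged effect of adhesion (log2 -0.05, SE 0.22, FDR = 0.943) and the genotype effect before adhesion (-0.11, SE 0.31, FDR = 0.902) were smaller than their errors. Its exons overlap those of *Elavl1* on the opposite strand, with the same limit as for *Cxcl16*. *Ccl6*, a CC ligand of myeloid cells, varied more between replicates than between groups, with 32 and 10 counts in WT before, 14 and 18 in WT after, 19 and 12 in E6 before and 30 and 6 in E6 after adhesion. Its averaged effect was -0.20 (SE 0.54, FDR = 0.898) and its genotype effect before adhesion -0.51 (SE 0.76, FDR = 0.777).

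**Figure D4:**
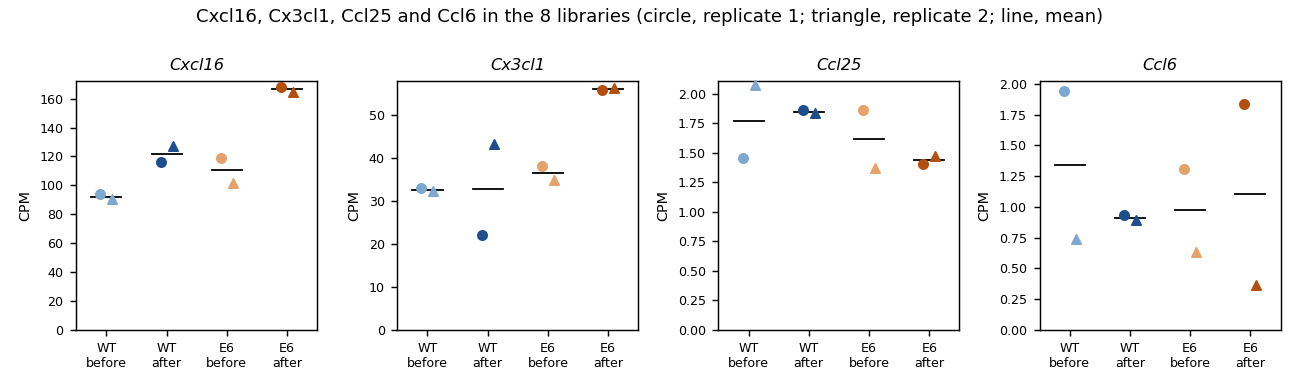
CPM of *Cxcl16*, *Cx3cl1*, *Ccl25* and *Ccl6* in each library (circle, replicate 1; triangle, replicate 2; line, mean of the group; axes start at 0). *Cxcl16* and *Cx3cl1* are highest in E6 after adhesion. *Ccl6* overlaps between all groups, and so does *Ccl25*, except that E6 after adhesion lies below WT after adhesion.

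Several low ligand genes were higher after thymocyte adhesion. The number of members with any count was 12, 12, 12 and 10 in the libraries before adhesion, 12 and 20 in WT after and 24 and 24 in E6 after. The WT library with 20 was the deepest of all (20145154 counts), and the share of all symbols counted per library is not given here. There were 11 members at 0 in all 4 libraries before adhesion and counted after it (*Ccl1*, *Ccl2*, *Ccl3*, *Ccl4*, *Ccl7*, *Ccl12*, *Ccl22*, *Ccl24*, *Cxcl9*, *Cxcl12* and *Xcl1*), and 0 members with the reverse pattern. Over all 24052 symbols, 1512 (6.29%) were at 0 before and counted after adhesion and 545 (2.27%) the reverse. Without *Cxcl16* and *Cx3cl1* the members summed to 3.33 to 8.07 CPM before adhesion, 7.98 and 11.0 CPM in WT after and 24.3 and 25.8 CPM in E6 after.

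Enough counts for the test were reached by 14 of the 39 members. Of these, 9 would not have been tested on the libraries before adhesion alone, so neither their number nor their sizes of effect are support for an increase; the other 5 were *Ccl6*, *Ccl9*, *Ccl25*, *Cx3cl1* and *Cxcl16*. In the effect of adhesion averaged over WT and E6 (edgeR's quasi-likelihood test, Benjamini-Hochberg FDR under 0.05 over 11672 genes and FC of at least 1.5), 4 members rose, *Cxcl2*, *Cxcl3*, *Ccl3* and *Ccl9*, and 0 fell, where 1.79% of all genes tested rose. All 4 libraries after adhesion were above all 4 before in CPM for 5 of the 14 (these 4 and *Ccl22*), as for 4.43% of all genes tested.

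The averaged calls depended on single libraries, over all genes as well as for the members. Without any library of WT before, E6 before or E6 after adhesion, fewer members and fewer of all genes were called. Without either library of WT after adhesion, where replicate 1 stood apart, more of each were called. Each of these fits leaves 1 library in a group. With culture time as a covariate 2 calls were left, *Ccl9* (FDR = 0.0336) and *Cxcl2* (FDR = 0.04997), with 124 of all genes called against 221 with all libraries. The 5 libraries of 12 h hold 2 of WT before and 1 of each other group, assumed to vary like WT before. Their only library of WT after adhesion is replicate 1, which stood apart.

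*Cxcl1*, *Cxcl2*, *Cxcl3* and *Cxcl5* encode neutrophil-attracting ligands that act through CXCR2. *Cxcl2* (chr5:90903871-90905938, plus strand) had 0 and 3 counts in WT before, 12 and 26 in WT after, 8 and 10 in E6 before and 59 and 107 in E6 after adhesion. The groups were thus ordered WT before, E6 before, WT after and E6 after in CPM without overlap. The averaged effect was 3.25 (SE 0.50, FDR = 0.024), and the ratio of pooled counts after over before was 10.8 in WT (95% exact interval 3.42 to 54.6) and 9.44 in E6 (5.79 to 16.3), intervals that cover counting error only. Without replicate 1 of WT before adhesion the averaged effect was 2.70 (FDR = 0.0888), and without replicate 2, which held all 3 counts of that group, a fitted 5.17 (FDR = 0.0411). The same libraries moved the effect in WT to 2.24 and 7.18.

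*Cxcl3* (chr5:90786103-90789600, plus strand) had 1 and 1 counts in WT before, 3 and 9 in WT after, 0 and 0 in E6 before and 32 and 40 in E6 after adhesion. Both groups after adhesion lay above both before, and E6 after was at least 24.6-fold above E6 before, with 0 counts taken as 3 over the group. Bounds of this kind here and below leave out the counting error of the higher group. In WT the ratio was 5.11 (1.14 to 47.0). The averaged effect passed the test (FDR = 0.0169).

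*Cxcl1* had 2 and 0 counts in WT before, 0 and 14 in WT after, 1 and 0 in E6 before and 15 and 33 in E6 after adhesion. Only the E6 libraries separated by adhesion, since replicate 1 of WT after had none. The averaged effect of 3.83 (SE 1.12, FDR = 0.230) and the genotype effect before adhesion (-0.96, SE 2.58, FDR = 0.893) did not pass. *Cxcl5*, not tested, had 4 and 6 counts in WT before, 5 and 8 in WT after, 1 and 1 in E6 before and 7 and 14 in E6 after, and *Cxcl15* had none.

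Among the inflammatory CC ligands, *Ccl3* (chr11:83647844-83649355, minus strand) was counted only after adhesion, with 22 and 13 counts in WT and 49 and 34 in E6 against 0 in all 4 libraries before. The increase was at least 9.94-fold in WT (adhesion in WT, FDR = 0.394) and at least 28.3-fold in E6 (averaged effect, FDR = 0.0248). *Ccl4*, the neighbouring gene with a closely related product, had 0 and 2 counts in WT after adhesion, 19 and 15 in E6 after and 0 before, an increase of at least 11.6-fold in E6 (averaged FDR = 0.273), with no fold in WT because both groups lay under the limit. *Ccl5*, which encodes a ligand made by activated T cells, had 3 and 2 counts in WT before, 0 and 9 in WT after, 3 and 4 in E6 before and 14 and 13 in E6 after adhesion. Its WT libraries overlapped, and the averaged effect was 1.23 (SE 0.68, FDR = 0.619) and the genotype effect before adhesion 0.33 (SE 1.11, FDR = 0.918).

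*Ccl9* (chr11:83572919-83578636, minus strand), a CCR1 ligand of myeloid cells, was present before adhesion as well. It had 16 and 16 counts in WT before, 24 and 46 in WT after, 7 and 3 in E6 before and 63 and 57 in E6 after adhesion, so that E6 was the lowest group before and the highest after. The averaged effect was 2.20 (SE 0.30, FDR = 0.0147), and before adhesion E6 lay below WT by 1.78 (SE 0.51, FDR = 0.0895), which did not pass. With 1 library left out the latter ranged from -2.68 to -1.13. It passed without either replicate of WT after (FDR = 0.00912 and 0.00887) within the 4 libraries before adhesion (FDR = 0.0124) and in the 12 h libraries (FDR = 0.00201), but not without any other library (FDR = 0.129 to 0.443), with the replicate block (0.137) or by DESeq2 (0.0698).

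Of the monocyte-attracting ligands of CCR2, *Ccl2* had 0 and 6 counts in WT after adhesion, 15 and 14 in E6 after and 0 in all 4 libraries before. With 0 counts taken as 3 over the group, the bound was 9.90-fold in E6 (averaged FDR = 0.221). In WT it was 1.70-fold, but replicate 1 after adhesion had 0 counts as before, so no increase is shown there. *Ccl7* was counted only in E6 after adhesion, 6 and 3 times, and *Ccl12* once there, in replicate 1. *Ccl22* (chr8:94745590-94751699, plus strand), a ligand of CCR4 made by mTECs and dendritic cells, had 2 and 3 counts in WT after and 16 and 17 in E6 after adhesion and 0 before. The bound was 11.3-fold in E6. In WT it was 1.42-fold, and counts this low do not show an increase there (adhesion in WT, FDR = 0.620). The averaged effect of *Ccl22* had an FDR of 0.0596, although all libraries after adhesion were above all before. *Ccl17*, the other CCR4 ligand, was at 0 in WT, 0 and 1 in E6 before and 2 and 1 in E6 after adhesion.

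*Cxcl10*, an interferon-inducible ligand of CXCR3, did not follow the groups. It had 1 and 0 counts in WT before, 0 and 8 in WT after, 43 and 0 in E6 before and 22 and 25 in E6 after adhesion, so that the highest and one of the lowest values stood in the same group. Replicate 1 of E6 before had 24 h of culture and replicate 2 had 12 h, and the 21 interferon-response genes examined summed to 177 and 130 CPM in them. Neither the averaged effect (1.25, SE 1.67, FDR = 0.781) nor the genotype effect before adhesion (5.12, SE 2.28, FDR = 0.251) passed, and in the 12 h libraries alone the latter was -2.39. Exons of *Cxcl10* overlap those of *Art3* on the opposite strand. *Cxcl9* was counted once in replicate 2 of WT after and once in replicate 2 of E6 after, and *Cxcl11* never.

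The remaining members were scarce. *Ccl20*, the CCR6 ligand of epithelia, had 6 and 2 counts in WT before, 9 and 14 in WT after, 3 and 0 in E6 before and 10 and 7 in E6 after adhesion. Its pooled ratio was 2.45 (1.06 to 6.33) in WT and 5.80 (1.68 to 30.9) in E6, with no test across libraries. *Ccl27a*, whose exons overlap those of *Il11ra1*, had 1 to 13 counts in every library. *Ccl28* had at most 3, *Cxcl12* had 2 and 1 in E6 after only, *Ccl24* had 1 count in 3 libraries after adhesion, and *Ccl1* and *Xcl1* had a single count each, both in E6 after.

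**Figure D5:**
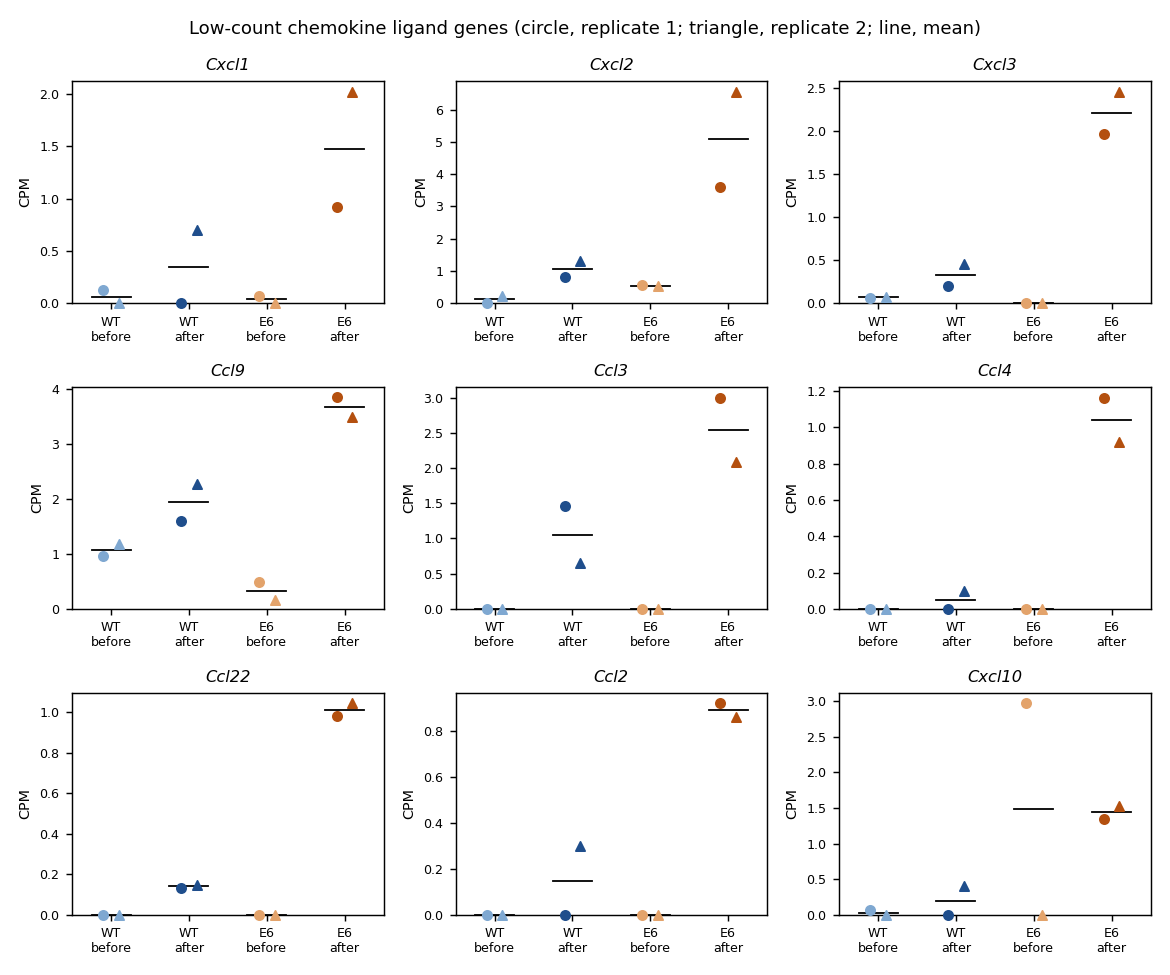
CPM of 9 low chemokine ligand genes in each library (circle, replicate 1; triangle, replicate 2; line, mean of the group; axes start at 0 and differ between panels). Both libraries of E6 after adhesion are the highest for every gene drawn except *Cxcl10*, where replicate 1 of E6 before adhesion is the highest.

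Within WT, adhesion called 0 members and 0 of all genes tested (background 0%). At an unadjusted p under 0.05 there were 5 members and 873 genes, and DESeq2 called 1 member, *Ccl3*, and 65 genes. Members and genes were called without either library of WT after adhesion and in the 12 h libraries, but these fits leave 1 library in that group. Without replicate 2, and in the 12 h libraries, this library is replicate 1, which stood apart.

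Within E6, adhesion raised 5 members, *Cxcl2*, *Cxcl3*, *Ccl3*, *Ccl9* and *Ccl22*, where 1.93% of all genes tested rose. Of these only *Ccl9* would have been tested on the libraries before adhesion alone. The others entered the test through libraries where they are high, so their number is not support for an increase of the members as a group. *Ccl9* rose by 3.52 (SE 0.45, FDR = 0.0120) and *Cxcl2* by 3.17 (SE 0.55, FDR = 0.0361) on the log2 scale. *Cxcl3* (FDR = 0.0115), *Ccl3* (FDR = 0.0398) and *Ccl22* (FDR = 0.0398) rose from 0 counts, with the bounds given above. Without any one of the 4 E6 libraries the calls were lost over all genes, not for the members alone. Fewer members and fewer of all genes were called without either replicate of WT before, and more of each without either of WT after. The count was 2 with culture time as a covariate (142 of all genes) and 9 when the E6 libraries alone were fitted (537 genes), against 234 genes with all libraries.

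Whether adhesion acted differently in E6 and WT was tested as the difference of the 2 effects, and 0 members passed (background 0%), with 2 members and 297 genes at an unadjusted p under 0.05 and 0 members and 3 genes by DESeq2. *Ccl9* had a difference of 2.63 (SE 0.61, unadjusted p = 0.00315 in edgeR's quasi-likelihood test, FDR = 0.988), from an effect of 0.89 (SE 0.39) in WT and 3.52 in E6. With 1 library left out it ranged from 1.98 to 3.53, in fits that leave 1 library in a group. Without replicate 2 of WT after adhesion, and in the 12 h libraries, that group is replicate 1 alone, the library that stood apart. The difference for *Ccl9* passed only in fits that leave 1 library in WT after adhesion. These were without either replicate of that group and in the 12 h libraries. It did not pass with the replicate block (FDR = 0.983) or by DESeq2 (FDR = 0.685). *Cxcl2* had an effect of 3.32 (SE 0.87) in WT and 3.17 (SE 0.55) in E6, a difference of -0.15 (SE 0.82). In the 12 h libraries members passed together with many of all genes, with WT after adhesion read from replicate 1 alone. For *Ccl2*, *Ccl3*, *Ccl4* and *Ccl22*, at 0 in both groups before adhesion, no difference could be estimated.

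Before adhesion, 0 members differed between E6 and WT, where 286 of 11672 genes tested (2.45%) were higher in E6 and 299 lower. *Ccl2*, *Ccl3*, *Ccl4* and *Ccl22* were at 0 in both groups, so that no difference could be called for them. At an unadjusted p under 0.05 there were 3 members (*Ccl9*, *Cxcl2* and *Cxcl16*) and 2521 genes, and DESeq2 called 0 members. *Cxcl2* differed by 2.35 (SE 0.97, FDR = 0.217), a value that was 1.27 without replicate 1 and a fitted 6.22 without replicate 2 of WT before. There were 3 calls without either replicate of WT after adhesion (1511 and 1512 of all genes called), 1 (1457 genes) when the 4 libraries before adhesion alone were fitted and 2 (1573 genes) in the 12 h libraries, against 585 genes with all libraries.

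After adhesion, 4 members were higher in E6 than in WT and 0 lower, where 4.85% of all genes tested were higher. *Cxcl3* was higher by 2.64 (SE 0.45, FDR = 0.0212), *Cxcl2* by 2.20 (SE 0.50, FDR = 0.0362), *Ccl22* by 2.71 (SE 0.57, FDR = 0.0448) and *Ccl4* by 3.99 (SE 0.84, FDR = 0.0462). DESeq2 called 3 members, *Cxcl2*, *Cxcl3* and *Cx3cl1*, but neither *Ccl22* (FDR = 0.146) nor *Ccl4* (FDR = 0.0904), and these 2 were also lost with the replicate block (FDR = 0.0838 and 0.0829). With 1 library left out the fitted value of *Ccl4* ranged from 3.33 to 7.03. In pooled counts these were 6.47-fold (3.49 to 13.1) for *Cxcl3*, 7.12-fold (2.76 to 23.4) for *Ccl22* and 18.3-fold (4.70 to 158) for *Ccl4*. Both E6 libraries were above both WT libraries in CPM for 12 of the 14 members tested, all but *Ccl6* and *Ccl25*, as for 29.8% of all genes tested. For *Ccl25* both E6 libraries lay below both WT libraries. Of the 14 members, 5 (*Ccl2*, *Ccl4*, *Ccl5*, *Ccl22* and *Cxcl3*) were over the count filter in the E6 libraries after adhesion alone and so entered the test through the group where they are high, and neither count is support for a difference of the members as a group.

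The thymocyte marker sum was also higher in E6 than in WT after adhesion, as were the C1q genes, at 0.466 and 1.09 CPM in WT and 5.39 and 3.74 CPM in E6, while the sum of the whole macrophage list overlapped (48.6 and 79.6 CPM in WT, 78.3 and 79.2 CPM in E6). The part of these cells in the difference was not tested. Fewer members and fewer of all genes were called without any library of WT before, E6 before or E6 after adhesion. More of each were called without either library of WT after. When the 4 libraries after adhesion alone were fitted, 0 members and 0 of all genes were called. With culture time as a covariate 1 call was left, with 877 of all genes called against 1040 with all libraries. In the 12 h libraries, and without replicate 2 of WT after, that group is replicate 1 alone, the library that stood apart.

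The receptors of these ligands were scarce in the same libraries. Of 24 receptor genes measured, 3 were tested, and *Ccr9* and *Cxcr4* rose with averaged adhesion, where 1.79% of all genes tested rose. Both were below the filter's cutoff of 0.613 CPM in every library before adhesion and so entered the test through those after it. Their number is thus not support for an increase of the receptors as a group. *Ccr9*, the CCL25 receptor of thymocytes, had 1 and 0 counts in WT before, 23 and 23 in WT after, 0 and 0 in E6 before and 150 and 136 in E6 after (FDR = 0.00510). *Cxcr4*, the receptor of CXCL12, had 0 and 1, 8 and 8, 0 and 0, and 30 and 46 counts in the same order (FDR = 0.0190). The scavenging receptor gene *Ackr3* had 770 to 1427 counts (averaged effect -0.22, SE 0.07, FDR = 0.312). *Cxcr6* and *Cx3cr1*, receptors of the abundant ligands, had at most 1 and 8 counts, and *Cxcr2* had 0.

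Of 21 cytokine genes and cytokine receptor genes that can act upstream of chemokines, 13 were tested. With averaged adhesion 4 rose and 0 fell, where 1.79% of all genes tested rose. *Il1b*, interleukin 1 beta, had 2 and 1 counts in WT before, 20 and 25 in WT after, 2 and 1 in E6 before and 42 and 28 in E6 after (effect 4.01, SE 0.40, FDR = 0.00549). *Il1a* rose by 2.20 (SE 0.33, FDR = 0.0231), *Ltb* rose from 0 counts (FDR = 0.0169), and *Ifngr2*, an interferon gamma receptor chain, by 0.63 (SE 0.12, FDR = 0.0462). *Il1b* and *Ltb* were below the filter's cutoff of 0.613 CPM in all 4 libraries before adhesion and so entered the test through those after it. The list's median effect was 0.23, against 0.00 over all genes. *Tnf* was at 0 in all 4 libraries before adhesion and had 5 and 15 counts in WT and 11 and 35 in E6 after.

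Of 15 NF-κB feedback and subunit genes, 14 were tested, 7 rose and 0 fell, with a median of 0.85, where 1.79% of all genes tested rose. *Nfkbia*, the inhibitor IκBα that NF-κB itself induces, had 296 and 199 counts in WT before, 652 and 2139 in WT after, 191 and 240 in E6 before and 1382 and 2612 in E6 after (effect 2.70, SE 0.31, FDR = 0.00866). All libraries after adhesion were above all before. *Nfkbie* rose by 2.58 (SE 0.19), *Birc3* by 2.09 (SE 0.24), *Nfkbiz* by 1.61 (SE 0.18) and *Relb* by 1.45 (SE 0.26). Before adhesion these genes had from 4 to 12 counts (*Birc3*) to 587 to 818 counts (*Nfkbiz*).

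Of 21 interferon-response genes, 16 were tested, and with averaged adhesion 4 rose and 0 fell, where 1.79% of all genes tested rose. Among them *Irf1* rose by 1.53 (SE 0.26), *Irf9* by 1.06 (SE 0.14) and *Stat2* by 0.66 (SE 0.10). Of 15 other secreted cytokine genes, 13 were tested and 1 rose, against the same share of all genes. It was *Lif*, which encodes a cytokine of the interleukin 6 family, by 0.68 (SE 0.10, FDR = 0.0240).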

How the data were processed

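Libraries were made with a stranded kit, an mRNA kit per the labels and a total RNA kit per the study's methods, and sequenced by the authors, who aligned reads to mm10 with STAR 2.5.0a and counted them per gene with HTSeq. The deposited values are raw counts per gene symbol. In 1 library a spreadsheet had changed 18 symbols to dates; gene order gave them back, and none was a chemokine. Rows naming no gene held 21.2 to 33.3% of alignments and were left out. From the counts, CPM and, with GENCODE vM21 exon lengths (build GRCm38), RPKM were computed. Low genes were removed with filterByExpr (11672 kept, CPM cutoff 0.613), and all 8 libraries were fitted together with edgeR 4.0.16 (R 4.3.3), TMM factors 0.938 to 1.03. The 6 contrasts were tested by the quasi-likelihood F test with Benjamini-Hochberg adjustment over all genes tested, FDR under 0.05 and FC of at least 1.5. Alternatives used DESeq2 1.42.0, other scalings and filters, a GC correction, a replicate block, culture time, and left-out libraries. The pipeline was tested on simulated data.

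Every member passing the filter was described with its counts or CPM, the others with counts; fold changes were printed for members called in a contrast and, for the rest tested, for averaged adhesion and E6 against WT before adhesion. From the other lists, genes called in averaged adhesion were named, at most 5 a list by effect size, and *Nfkbia*, except 1 that is not reported here; the receptor, *Tnf* and marker values given besides were chosen after their values were seen. The members and lists were chosen with earlier results of these data known. No unique molecular identifiers were used, so exact 95% intervals on pooled counts cover counting error only. Protein sequences were not used here.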

Additional observations from a re-analysis of the deposited data

How the results depend on the processing

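The numbers of chemokine ligand genes called were compared between settings, with the cause of each change not tested unless the setting itself removes libraries or genes. With 1 library left out at a time (the remaining library of the group assumed to vary like the other groups), the calls ranged from 0 to 8 for averaged adhesion, 0 to 2 in WT, 0 to 10 in E6, 0 to 5 for the difference, 0 to 3 for E6 against WT before and 0 to 10 after adhesion. In the 5 libraries of 12 h there were 6, 3, 11, 7, 2 and 9 calls, and with culture time as a covariate 2, 0, 2, 0, 0 and 1. Without a filter on low counts the calls in E6 were 3 and those between genotypes after adhesion 2, with more genes tested. With only the libraries compared, they were 9 in E6, 1 before and 0 after adhesion, and DESeq2 called 1 in WT. RLE size factors, the GC correction and leaving out the FC limit kept all 6 counts within 1.5 times. Genes of the other lists were not recomputed under these settings.

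Same-numbered libraries of WT before and after deviated together (r = 0.222 over 9768 genes), but the other pairs of groups did not (-0.0794 to 0.0232). With 2 libraries per group, and culture times that differ within groups, these values cannot tell whether same-numbered libraries shared a day or preparation. No source used here says what the number stands for. With the replicate number as a block the calls were 4, 0, 4, 0, 0 and 2 in the order above.

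Direction changed only for effects that had not passed the test. In the 12 h libraries the averaged effect became 0.12 for *Ccl25* and -1.32 for *Ccl5*, the difference for *Cxcl2* 0.59 and the genotype effect before adhesion for *Cxcl10* -2.39. With 1 library left out, averaged effects ranged from -0.17 to 0.078 for *Ccl25*, -1.28 to 1.63 for *Ccl5*, -0.98 to 0.24 for *Ccl6* and -1.16 to 5.03 for *Cxcl10*, the difference for *Cxcl2* from -4.02 to 0.93, and genotype effects before adhesion from -1.08 to 0.38 for *Ccl6*, -0.35 to 0.15 for *Ccl25*, -3.30 to 2.32 for *Cxcl1* and -2.44 to 7.56 for *Cxcl10*. Depth limits the scarce members: at 0.149 to 0.222 CPM per 3 counts, a difference between 0 and a few counts was not detectable.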
